A study of Mus musculus with 12 samples.

Results

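Molecular chaperones help newly made proteins to fold, and each compartment of the cell has its own set. A total of 41 mouse genes were followed here: chaperones and folding enzymes of the endoplasmic reticulum (ER), regulators of the unfolded protein response (UPR), components of ER-associated degradation, cytosolic heat shock proteins with their regulator Hsf1, mitochondrial chaperones and subunits of the cytosolic chaperonin CCT. They were chosen by gene symbol, and each was read from the probe set of that symbol with the highest mean over all arrays. A probe set is the group of array probes summarised to 1 value. Of the 41 genes, 39 had such a probe set, out of 20738 genes with one in the whole series. Hsp90ab1 and Hsf1 were not analysed here.

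The study measured total RNA of naive CD4 T cells of C57BL/6 mice on biotin-labelled arrays. Cells came from PP2Ac_Tg mice, which carry a transgene for PP2Ac (the catalytic subunit of a broad serine/threonine phosphatase and the product of Ppp2ca), or from WT mice, and were taken before stimulation or 6 h or 24 h into it. The 6 groups were PP2Ac_Tg at 0, 6 and 24 h and WT at 0, 6 and 24 h, with 2 arrays each. Stimulation used plates carrying goat anti-hamster antibody, to which anti-CD3 at 0.25 ug/mL and anti-CD28 at 0.5 ug/mL were added in solution, in RPMI medium with serum. The promoter of the transgene, the founder line and the age of the mice are not given in the sources used here, and the source field of the WT samples reads "WT transgenic mice" although titles and design text give WT. In each group 1 array carries the mark Rep in its title. Pairs of array values below give the unmarked array first and the array marked Rep second. Separate mice or cultures are named by no label. The spread behind each p-value is therefore that of these samples and may be technical, and the small number of arrays limits the precision.

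When protein load in the ER rises, the sensors Ern1 (IRE1), Atf6 and Eif2ak3 (PERK) start the UPR, which raises the transcription of ER chaperones through the factors Xbp1, Atf6 and Atf4. Hsf1 does the same for heat shock proteins of the cytosol and for some mitochondrial chaperones. T cells enlarge and begin to make protein at a high rate after stimulation through CD3 and CD28, before they divide.

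Signals are log2 values after quantile normalisation between arrays, and they are relative to the other probe sets of the same array. A gene was counted as higher or lower where the Benjamini-Hochberg adjusted p of limma, fitted to all 23410 probe sets with a symbol, was under 0.05. In bulk RNA, fewer cells of a type and less RNA per cell cannot be told apart. Ppp2ca had mean log2 signals of 13.89, 13.75 and 13.81 at 0, 6 and 24 h in PP2Ac_Tg cells, against 13.15, 13.36 and 13.21 in WT cells. Its difference averaged over the 3 times was 0.57 ± 0.05 (SE, limma adjusted p = 0.0044), and at the single times it was 0.74, 0.38 and 0.60 with adjusted p of 0.055, 1.0 and 0.28. The 7 measured T cell identity markers, Cd3d and Cd4 among them, averaged log2 signals of 12.89 to 13.31 in the 12 arrays, and 7 of 8 activation genes rose at 6 h in each genotype, with Il2ra higher by 2.89 in PP2Ac_Tg cells and by 3.06 in WT cells. The mean levels of neutrophil, monocyte, B cell and CD8 T cell markers were above the array median of 7.45 in every array. The mean of 10 neutrophil markers was 7.85 to 8.94 in the WT arrays marked Rep, against 10.10 to 12.34 in all other arrays, and it was lower at 24 h than at 0 h within each set of each genotype, although 0 of the 10 passed limma in either response (0 at an unadjusted p under 0.05). The mean of 8 monocyte markers was 7.90 to 8.78 in the WT arrays marked Rep, against 9.38 to 10.47 in the others. The mean of 8 B cell markers was 9.08 to 10.44, and 4 of the 8 fell at 6 h in each genotype. Cr2 went the other way and rose at 6 h, by 1.16 in PP2Ac_Tg cells and by 1.42 in WT cells. Between 6 h and 24 h, 5 rose in PP2Ac_Tg cells and 3 in WT cells, while Cr2 fell by 1.12 and 1.62. The 2 CD8 T cell markers averaged 9.05 to 11.02, and Cd8a, named after its values were seen, was higher at 24 h than at 0 h by 1.88 in PP2Ac_Tg cells (adjusted p = 0.035), with a difference of 1.39 in WT cells (adjusted p = 0.096). The dendritic cell markers averaged 6.74 to 8.01, and 4 of 8 fell at 24 h in each genotype. At 24 h, 2 of 8 monocyte, 2 of 6 NK cell and 2 of 3 erythroid markers also fell in PP2Ac_Tg cells, and 1 of each list in WT cells. The NK cell markers averaged 7.44 to 9.03 and the erythroid markers 6.79 to 8.38. The share of all probe sets that changed in each response is given below. The part of these cells in the results below was not tested.

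Stimulation raised most chaperone genes in cells of both genotypes. At 6 h, 28 of the 39 genes rose and 2 fell in PP2Ac_Tg cells, where 25.4% of all probe sets changed (12.5% rose and 12.9% fell). In WT cells 28 rose and 2 fell, where 26.5% of all probe sets changed (12.6% rose and 13.9% fell). The median log2 difference over the 39 genes was 0.65 in each genotype, against 0.0 in PP2Ac_Tg cells and -0.01 in WT cells over all probe sets. These genes are bright, all with a mean at or above the 64.2 percentile of tested probe sets. Of the brighter 60% of probe sets, tested alone, 21.6% rose in PP2Ac_Tg cells and 21.8% in WT cells.

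At 24 h, 26 of the 39 genes rose and 2 fell in PP2Ac_Tg cells, where 23.8% of all probe sets changed (12% rose and 11.8% fell). In WT cells 26 rose and 1 fell, where 26.7% of all probe sets changed (12.9% rose and 13.8% fell). Medians over the 39 genes were 0.50 in PP2Ac_Tg cells and 0.51 in WT cells, against -0.01 and -0.02 over all probe sets. Among the brighter 60% of probe sets, 20.4% rose in PP2Ac_Tg cells and 21.7% in WT cells. The WT count at 24 h was 16 in place of 27 when the WT arrays marked Rep, which had the low neutrophil markers, were left out, so that a single WT array stood for each time. Of the genes that rose, 27 did so in both genotypes at 6 h and 26 at 24 h. Hspa8 at 6 h passed in PP2Ac_Tg cells and not in WT cells, and Xbp1 at 6 h in WT cells and not in PP2Ac_Tg cells, but no difference between the genotypes' responses passed (below).

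**Figure D1:**
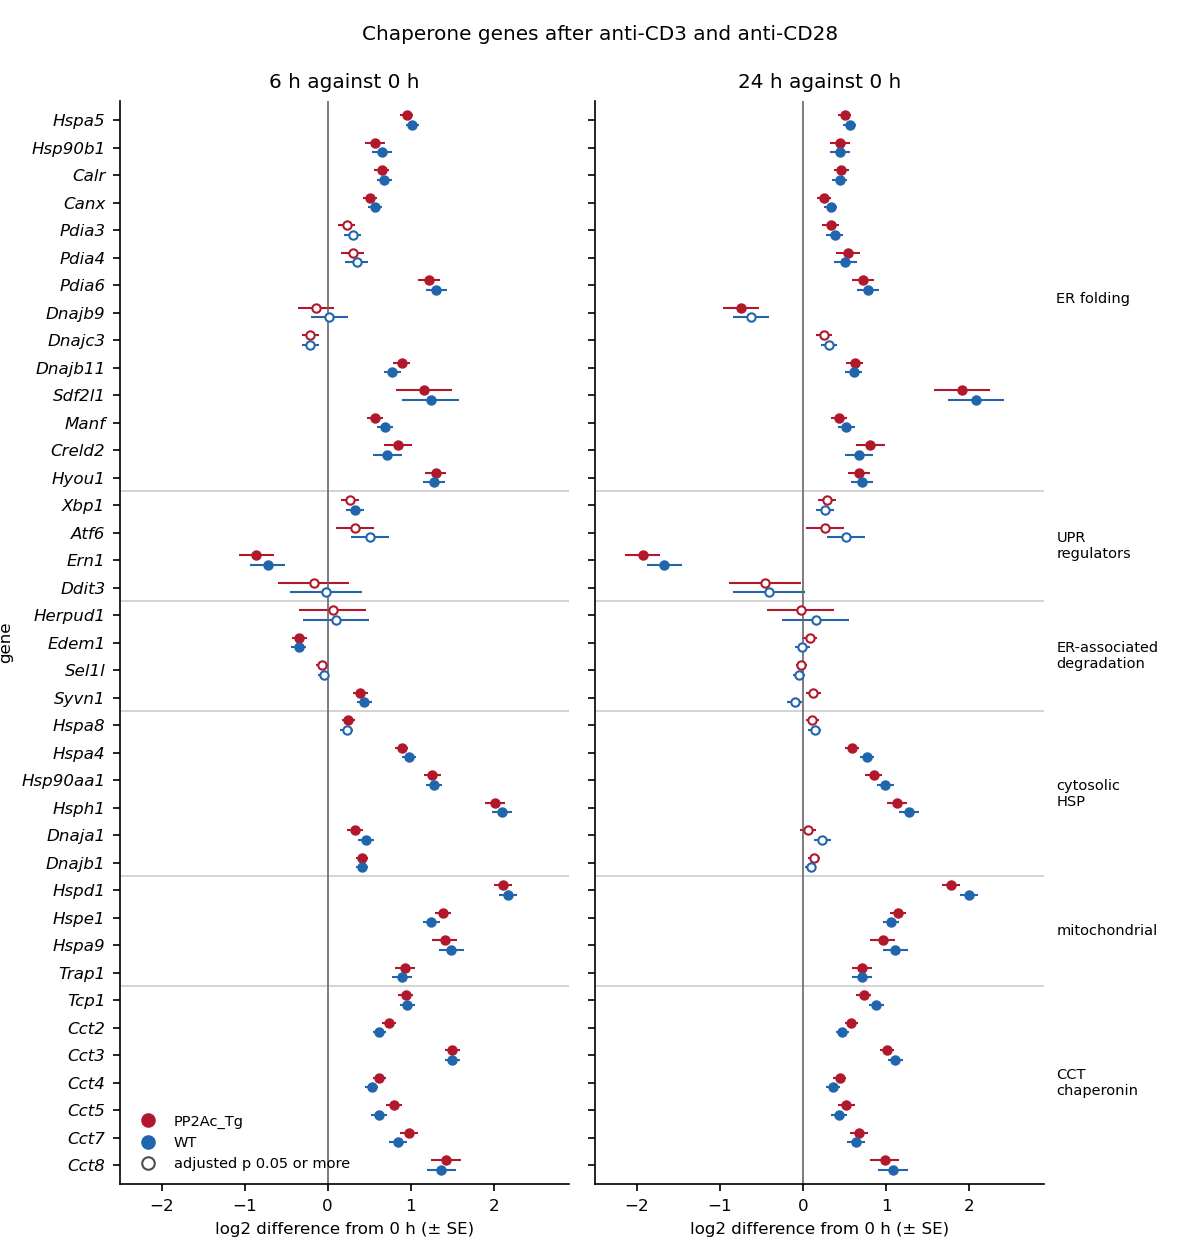
Log2 difference of each chaperone gene from 0 h at 6 h (left) and 24 h (right), with the standard error of the limma fit (2 arrays per group), in PP2Ac_Tg (red, upper point) and WT cells (blue, lower point); open points had an adjusted p of 0.05 or more. Mitochondrial and CCT genes all lie to the right of 0, Ern1 lies far to the left, and Sdf2l1 is the ER gene farthest to the right at 24 h.

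The mitochondrial chaperones gave the largest median change of the 6 compartments at each time. All 4 rose at 6 h and 24 h in each genotype, with medians of 1.40 and 1.05 in PP2Ac_Tg cells and 1.37 and 1.09 in WT cells. Hspd1 (HSP60), which forms the folding chamber of the matrix, had log2 signals in PP2Ac_Tg cells of 11.01 and 10.90 at 0 h, 13.07 and 13.07 at 6 h and 12.82 and 12.65 at 24 h. In WT cells its signals were 10.88 and 10.89 at 0 h, 13.20 and 12.92 at 6 h and 12.79 and 12.97 at 24 h. Every stimulated array lay above every 0 h array. These signals correspond to 4.33-fold at 6 h and 3.44-fold at 24 h in PP2Ac_Tg cells (log2 2.11 and 1.78, each ± 0.11) and to 4.52-fold and 3.99-fold in WT cells (log2 2.17 and 2.00, each ± 0.11). The adjusted p were 1.2e-05 and 6.6e-05 in PP2Ac_Tg cells and 1e-05 and 2.7e-05 in WT cells.

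Hspe1 (HSP10), the lid of that chamber, rose by 1.39 and 1.14 in PP2Ac_Tg cells and by 1.25 and 1.06 in WT cells at 6 h and 24 h (each ± 0.10). Hspa9 (mortalin), the HSP70 of the matrix, rose by 1.41 and 0.96 in PP2Ac_Tg cells and by 1.49 and 1.11 in WT cells. Trap1, the mitochondrial HSP90, changed least of the 4. Its signals in PP2Ac_Tg cells were 11.15 and 11.07 at 0 h, 12.14 and 11.93 at 6 h and 11.92 and 11.72 at 24 h, and in WT cells 11.26 and 11.17, 12.24 and 11.99, and 11.88 and 11.98. Even so it rose by 0.93 and 0.71 in PP2Ac_Tg cells and by 0.90 and 0.71 in WT cells, and no 0 h array reached a stimulated one.

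Hspd1 and Hspe1 lie back to back on mouse chromosome 1, so that 1 stretch of DNA is upstream of both. That stretch is shown because it holds a heat shock element (HSE), the motif bound by Hsf1, here searched on both strands as GAA, any 2 bases, TTC, any 2 bases, GAA. It runs from the base after a start site of Hspd1 (minus strand) to the base before the start site of Hspe1 (plus strand), chr1:55087933-55088147 in GRCm38.p6, from RefSeq, on the plus strand, with the motif letters in capitals.
Hspd1-Hspe1: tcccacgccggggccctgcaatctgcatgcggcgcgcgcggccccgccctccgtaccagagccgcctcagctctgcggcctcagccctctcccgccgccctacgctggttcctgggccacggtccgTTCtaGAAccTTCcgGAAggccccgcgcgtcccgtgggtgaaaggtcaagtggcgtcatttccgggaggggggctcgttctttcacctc
The capitals are 2 overlapping matches, 1 on each strand, at bases 55088059 to 55088076. Of the 32 chaperone genes with a promoter window (250 bases before to 50 after a RefSeq start site), 3 held an HSE, against 0.662% of 27025 genes. The other is Hsph1, described below with its site.

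For Hspd1, Hspe1, Hsp90aa1 and Dnaja1, the IDs next to the chosen probe set belong to genes of another chromosome (11, 18, 11 and 5) than the gene itself (1, 1, 12 and 4), and whether these probe sets read processed copies of the genes was not tested. A second Hspd1 probe set rose by 2.53 and 2.13 in PP2Ac_Tg cells and by 2.50 and 2.34 in WT cells at 6 h and 24 h. A second Hspe1 probe set rose by 1.38 and 1.11 in PP2Ac_Tg cells and by 1.23 and 1.03 in WT cells. A second Hsp90aa1 probe set rose by 1.22 and 0.80 in PP2Ac_Tg cells and by 1.27 and 0.98 in WT cells. For these 3 genes the direction and the call were the same from either probe set. For Dnaja1 the direction was the same at 6 h but the call was not, as given below. Its second probe set differed at 24 h by -0.10 in PP2Ac_Tg cells and -0.04 in WT cells. The chosen one had positive differences there, neither past the threshold.

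All 7 CCT subunits of the list, which are part of the ring that folds actin and tubulin, rose at 6 h and at 24 h in each genotype. Medians were 0.94 and 0.67 in PP2Ac_Tg cells and 0.85 and 0.64 in WT cells. Cct3 changed most. It had signals of 11.50 and 11.30 at 0 h, 12.96 and 12.83 at 6 h and 12.39 and 12.42 at 24 h in PP2Ac_Tg cells, against 11.43 and 11.44, 12.98 and 12.90, and 12.50 and 12.59 in WT cells. Its log2 differences were 1.50 and 1.01 in PP2Ac_Tg cells and 1.50 and 1.11 in WT cells (each ± 0.09). Cct8 followed with 1.43 and 0.98 in PP2Ac_Tg cells and 1.37 and 1.08 in WT cells (each ± 0.18), and Tcp1, Cct2, Cct5 and Cct7 lay between.

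Cct4 changed least of the ring. Its signals in PP2Ac_Tg cells were 11.84 and 11.84 at 0 h, 12.45 and 12.47 at 6 h and 12.29 and 12.27 at 24 h, and in WT cells 12.01 and 11.98, 12.59 and 12.45, and 12.30 and 12.40. It rose by 0.62 and 0.44 in PP2Ac_Tg cells (adjusted p = 0.00037 and 0.0035) and by 0.53 and 0.36 in WT cells (adjusted p = 0.00089 and 0.0076). The groups of stimulated and unstimulated arrays did not overlap for any CCT subunit named here with its array values.

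Among the cytosolic heat shock proteins, 6 of 6 measured genes rose at 6 h in PP2Ac_Tg cells and 5 of 6 in WT cells, and 3 of 6 were still higher at 24 h in each genotype. Hsph1 (HSP110), a nucleotide exchange factor that restarts HSP70, had the strongest response. Its signals in PP2Ac_Tg cells were 10.20 and 10.12 at 0 h, 12.19 and 12.16 at 6 h and 11.34 and 11.23 at 24 h. In WT cells they were 10.21 and 10.18, 12.39 and 12.20, and 11.29 and 11.67. These are 4.04-fold and 2.19-fold over 0 h in PP2Ac_Tg cells (log2 2.02 and 1.13, each ± 0.12) and 4.28-fold and 2.43-fold in WT cells (log2 2.10 and 1.28, each ± 0.12). The highest 24 h array lay below the lowest 6 h array, and the fall between them was 0.88 in PP2Ac_Tg cells (adjusted p = 0.0024) and 0.82 in WT cells (adjusted p = 0.0038). The HSE of Hsph1 lies 37 to 49 bases after the first of its 2 start sites on chromosome 5, in a window at chr5:149636287-149636308, minus strand, shown with the motif letters in capitals.
Hsph1: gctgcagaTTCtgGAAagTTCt

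Hsp90aa1, the inducible HSP90 of the cytosol, rose by 1.26 and 0.85 in PP2Ac_Tg cells and by 1.28 and 0.99 in WT cells (each ± 0.10). Hspa4, another HSP110 relative, rose by 0.89 and 0.59 in PP2Ac_Tg cells and by 0.98 and 0.77 in WT cells. The constitutive HSP70, Hspa8, changed least at 6 h and was the brightest of all 39 genes. Its signals were 14.13 and 14.05 at 0 h, 14.33 and 14.36 at 6 h and 14.19 and 14.21 at 24 h in PP2Ac_Tg cells, against 14.15 and 14.02, 14.35 and 14.29, and 14.18 and 14.27 in WT cells. The 6 h differences were 0.25 in PP2Ac_Tg cells (adjusted p = 0.045) and 0.23 in WT cells (adjusted p = 0.061). A second probe set gave 0.35 in PP2Ac_Tg cells and 0.33 in WT cells, both past the threshold. The IDs next to it belong to genes of chromosome 5, while Hspa8 lies on chromosome 9. Whether it reads a processed copy was not tested.

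The J-domain cochaperones that load clients onto HSP70 rose at 6 h and were not higher at 24 h past the threshold. Dnajb1 had 10.75 and 10.85 at 0 h, 11.19 and 11.23 at 6 h and 10.91 and 10.96 at 24 h in PP2Ac_Tg cells, against 10.77 and 10.80, 11.18 and 11.21, and 10.88 and 10.87 in WT cells. It was higher by 0.41 at 6 h in each genotype (adjusted p = 0.0024 in each) and fell again by 24 h, by 0.28 in PP2Ac_Tg cells and 0.32 in WT cells. Dnaja1 gave 12.15 and 11.92, 12.35 and 12.38, and 12.02 and 12.18 in PP2Ac_Tg cells at the 3 times, against 11.82 and 11.87, 12.30 and 12.30, and 12.02 and 12.12 in WT cells. Its rise of 0.33 at 6 h in PP2Ac_Tg cells (adjusted p = 0.034) and of 0.46 in WT cells (adjusted p = 0.0068) was not called from a second probe set, where the differences were 0.24 and 0.51 with adjusted p of 0.37 and 0.050.

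**Figure D2:**
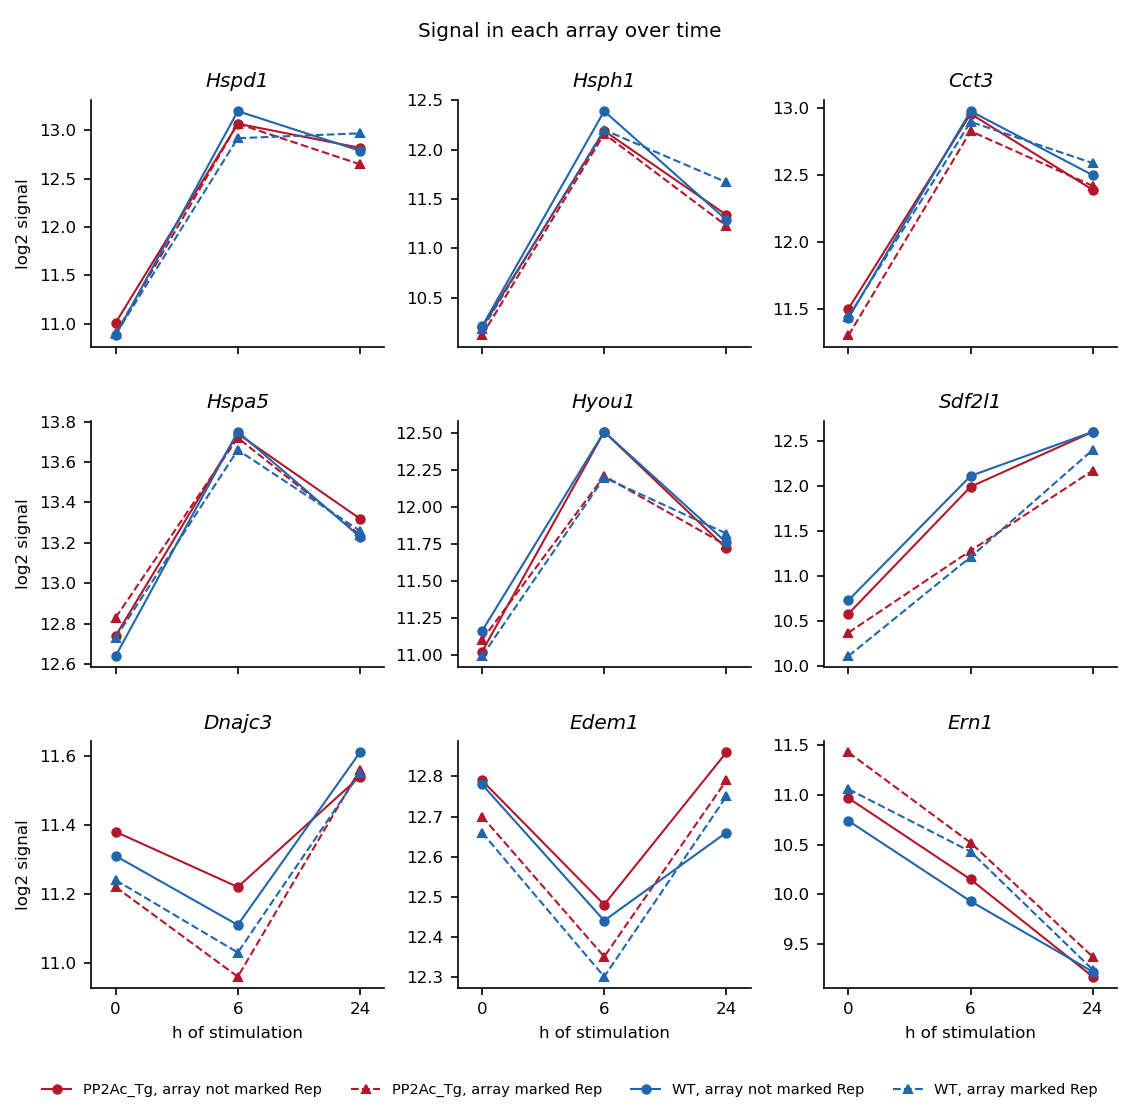
Log2 signal of 9 chaperone genes in each array at 0, 6 and 24 h (evenly spaced on the axis), with arrays of the same genotype and set joined: PP2Ac_Tg in red and WT in blue, unmarked arrays as circles on solid lines and arrays marked Rep as triangles on dashed lines. Hspd1, Hsph1, Cct3, Hspa5 and Hyou1 are lowest at 0 h in every line, Sdf2l1 climbs through 24 h, Dnajc3 and Edem1 dip at 6 h, and Ern1 falls throughout.

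In the ER, 10 of the 14 folding genes rose at 6 h and 12 at 24 h in each genotype. Medians were 0.61 and 0.48 in PP2Ac_Tg cells and 0.69 and 0.51 in WT cells. Hspa5 (BiP), the HSP70 of the ER and the protein that holds the UPR sensors inactive, had 12.74 and 12.83 at 0 h, 13.74 and 13.72 at 6 h and 13.32 and 13.24 at 24 h in PP2Ac_Tg cells. In WT cells it had 12.64 and 12.73, 13.75 and 13.66, and 13.23 and 13.26. The groups of the 3 times did not overlap. Hspa5 was 1.93-fold and 1.41-fold over 0 h in PP2Ac_Tg cells (log2 0.95 and 0.50, each ± 0.08) and 2.03-fold and 1.48-fold in WT cells (log2 1.02 and 0.56, each ± 0.08). The later fall from the 6 h level was 0.45 in PP2Ac_Tg cells (adjusted p = 0.0058) and 0.46 in WT cells (adjusted p = 0.0059).

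Hyou1, the exchange factor of BiP, and Pdia6, a disulphide isomerase, had the largest 6 h changes of the ER folding genes. Hyou1 had 11.02 and 11.10, 12.51 and 12.21, and 11.72 and 11.74 in PP2Ac_Tg cells at 0, 6 and 24 h, against 11.16 and 10.99, 12.51 and 12.20, and 11.76 and 11.82 in WT cells. It rose by 1.30 at 6 h in PP2Ac_Tg cells and by 1.28 in WT cells (each ± 0.13). Pdia6 had 10.28 and 10.32, 11.61 and 11.43, and 11.10 and 10.94 in PP2Ac_Tg cells, against 10.30 and 10.23, 11.77 and 11.38, and 11.08 and 11.02 in WT cells. It rose by 1.22 at 6 h in PP2Ac_Tg cells and by 1.31 in WT cells (each ± 0.13). Like Hspa5, both were lower at 24 h than at 6 h in each genotype, Hyou1 by 0.63 and Pdia6 by 0.50 in PP2Ac_Tg cells and by 0.57 and 0.53 in WT cells.

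The lectin chaperones that retain glycoproteins for folding changed by less. Calr rose by 0.65 and 0.46 in PP2Ac_Tg cells and by 0.68 and 0.44 in WT cells, and Canx by 0.51 and 0.25 in PP2Ac_Tg cells and by 0.57 and 0.33 in WT cells. The 24 h rise of Canx in PP2Ac_Tg cells (adjusted p = 0.038) was the smallest called in the compartment and was lost under several alternatives, among them median centring (adjusted p = 0.088). Hsp90b1 (GRP94), the HSP90 of the ER, rose by 0.57 and 0.44 in PP2Ac_Tg cells and by 0.65 and 0.44 in WT cells. Dnajb11, a cochaperone of BiP, rose by 0.89 and 0.62 in PP2Ac_Tg cells and by 0.78 and 0.61 in WT cells. Manf and Creld2, ER stress proteins, rose by 0.57 and 0.85 at 6 h in PP2Ac_Tg cells and by 0.69 and 0.72 in WT cells.

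Sdf2l1, Pdia3 and Pdia4 had their highest mean at 24 h in each genotype, but none of their differences between 24 h and 6 h passed. Sdf2l1, a partner of the BiP cochaperones, had 10.58 and 10.37 at 0 h, 11.99 and 11.28 at 6 h and 12.60 and 12.17 at 24 h in PP2Ac_Tg cells, against 10.73 and 10.11, 12.11 and 11.21, and 12.60 and 12.40 in WT cells. Its level at 24 h was 3.75-fold that at 0 h in PP2Ac_Tg cells (log2 1.91 ± 0.34, adjusted p = 0.0036) and 4.23-fold in WT cells (log2 2.08 ± 0.34, adjusted p = 0.0018). Between 6 h and 24 h it differed by 0.75 in PP2Ac_Tg cells and 0.84 in WT cells, with adjusted p of 0.19 and 0.14, and of 0.015 and 0.010 with the mark Rep as a replicate block. Every line of arrays in the plot of time courses is higher at 24 h than at 6 h. The 6 h rises of 1.16 in PP2Ac_Tg cells and 1.24 in WT cells rested on single arrays: without the unmarked 6 h array of the same genotype they were 0.80 (adjusted p = 0.22) and 0.79 (adjusted p = 0.16). The disulphide isomerases Pdia3 and Pdia4 passed at 24 h and not at 6 h. Pdia3 was higher by 0.33 at 24 h in PP2Ac_Tg cells and by 0.38 in WT cells, and Pdia4 by 0.54 and 0.51. Against 6 h, Pdia3 at 24 h differed by 0.10 in PP2Ac_Tg cells and 0.08 in WT cells (adjusted p = 0.62 and 0.67), with values of -0.03 and -0.06 in the unmarked arrays. Pdia4 differed by 0.24 and 0.15 (adjusted p = 0.33 and 0.55). At 6 h Pdia4 differed by 0.30 in PP2Ac_Tg cells and 0.35 in WT cells (adjusted p = 0.16 and 0.097, the WT value passing at 0.036 with the replicate block). A second Pdia4 probe set rose at 6 h, by 0.49 in PP2Ac_Tg cells and 0.56 in WT cells, and between 6 h and 24 h it differed by -0.01 and -0.10.

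Dnajc3 (p58IPK), a BiP cochaperone that also inhibits PERK, did not pass the threshold against 0 h at either time (in WT cells at 24 h 0.31, adjusted p = 0.053, and 0.024 with the replicate block), but rose between 6 h and 24 h. Its signals were 11.38 and 11.22, 11.22 and 10.96, and 11.54 and 11.56 in PP2Ac_Tg cells, against 11.31 and 11.24, 11.11 and 11.03, and 11.61 and 11.55 in WT cells. The rise after 6 h was 0.46 in PP2Ac_Tg cells (adjusted p = 0.017) and 0.51 in WT cells (adjusted p = 0.012). Dnajb9 (ERdj4), a cochaperone that returns BiP to Ern1, went the other way. It had 11.29 and 11.34 at 0 h, 10.89 and 11.47 at 6 h and 10.49 and 10.65 at 24 h in PP2Ac_Tg cells, against 11.08 and 11.22, 10.89 and 11.44, and 10.33 and 10.71 in WT cells. At 24 h it fell by 0.75 in PP2Ac_Tg cells (adjusted p = 0.038); in WT cells the difference was -0.63 (adjusted p = 0.068, and 0.0085 with the replicate block). Between 6 h and 24 h it differed by -0.61 in PP2Ac_Tg cells and -0.64 in WT cells (adjusted p = 0.11 and 0.095, and 0.016 and 0.014 with the replicate block).

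ER chaperone promoters are where the ER stress response element (ERSE) was defined, a site bound by ATF6 with NF-Y. The 19-base form, CCAAT and CCACG with any 9 bases between them, searched on both strands, occurred in 8 of the 32 chaperone genes with a window (25.0%), against 0.137% of 27025 genes. The full 250 bases upstream of Hspa5 are shown first, because it is the classic target, at chr2:34771840-34772089, plus strand, GRCm38.p6, from RefSeq, with the element's fixed letters in capitals.
Hspa5: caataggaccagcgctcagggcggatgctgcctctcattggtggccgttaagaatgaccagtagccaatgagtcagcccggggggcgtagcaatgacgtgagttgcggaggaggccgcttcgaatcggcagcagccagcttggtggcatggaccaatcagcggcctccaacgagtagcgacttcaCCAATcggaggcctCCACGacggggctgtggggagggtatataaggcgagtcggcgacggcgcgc
The sites of the other genes are shown with 10 bases on each side, read in the direction of the gene, so that the differing inner bases can be compared; capitals beginning CGTGG mark a site on the opposite strand.
Hsp90b1: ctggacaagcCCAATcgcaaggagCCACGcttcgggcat
Hsp90b1: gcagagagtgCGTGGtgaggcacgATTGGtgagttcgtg
Calr: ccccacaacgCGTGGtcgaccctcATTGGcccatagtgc
Canx: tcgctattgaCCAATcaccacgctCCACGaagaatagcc
Pdia6: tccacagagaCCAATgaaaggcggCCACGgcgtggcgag
Dnajc3: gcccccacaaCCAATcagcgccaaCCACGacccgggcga
Creld2: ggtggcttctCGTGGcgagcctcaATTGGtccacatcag
Syvn1: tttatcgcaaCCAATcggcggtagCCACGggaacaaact
In GRCm38.p6 these windows are chr10:86705628-86705666 and chr10:86705523-86705561 (Hsp90b1, minus strand), chr8:84847065-84847103 (Calr, minus), chr11:50325790-50325828 (Canx, minus), chr12:17266481-17266519 (Pdia6, plus), chr14:118937817-118937855 (Dnajc3, plus), chr15:88819510-88819548 (Creld2, plus) and chr19:6046522-6046560 (Syvn1, plus).

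At 6 h, 7 of these 8 genes rose in each genotype, Dnajc3 being the exception, with a median of 0.61 in PP2Ac_Tg cells and 0.66 in WT cells. Of the 11 other ER-related genes with a window, 2 rose and 2 fell in PP2Ac_Tg cells (median 0.06), and 3 rose and 2 fell in WT cells (median 0.10). At 24 h, 6 of the 8 and 4 of the 11 were higher in each genotype. None of the 8 fell at 24 h, and 2 of the 11 fell in PP2Ac_Tg cells and 1 in WT cells. The 4 higher ones were the folding genes Pdia3, Pdia4, Dnajb11 and Sdf2l1. The rest of the 11 were the folding gene Dnajb9 and the regulator and degradation genes Xbp1, Ern1, Ddit3, Herpud1, Edem1 and Sel1l. All of the 8 but Syvn1 were folding genes, so the groups also differed in compartment, and the part of the element was not tested. Hyou1, Manf and Atf6 had no window. The shorter ERSE-II (ATTGG, any base, CCACG) was found in Dnajb11 and Herpud1 (0.0444% of genes), which are both among the 11. The UPRE (TGACGTGG), a site for XBP1 and ATF6, was in none of the 32 (0.714% of genes). The E-box CACGTG, a site for MYC among others, was in 4 (12.5%, against 8.09% of genes). A match describes letters in the window and no binding.

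**Figure D3:**
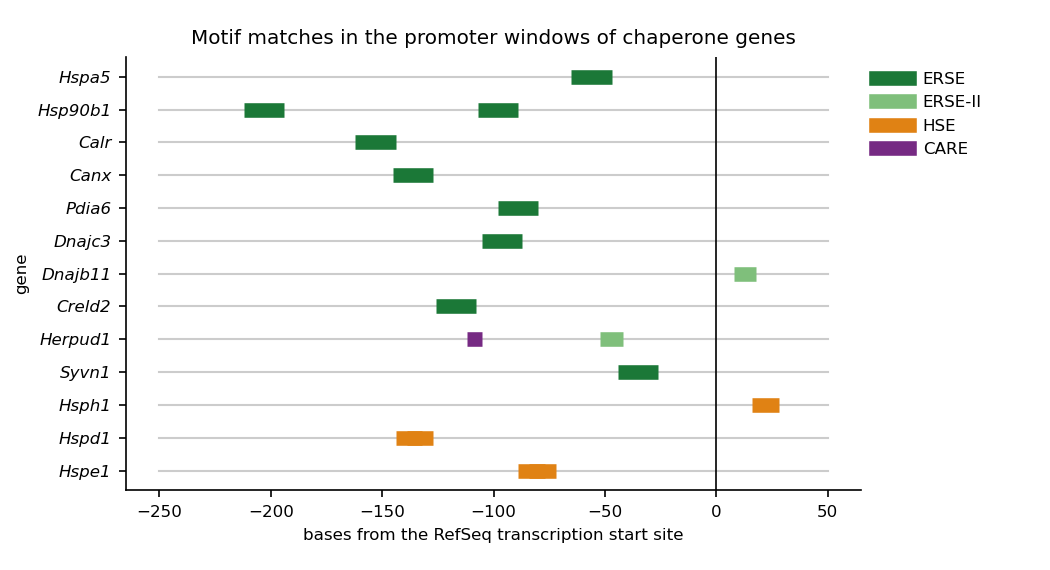
Positions of motif matches (coloured blocks) in the promoter windows of 13 chaperone genes, in bases from a RefSeq transcription start site (0, vertical line; upstream to the left); genes with 2 start sites are drawn from one of them. The ERSE matches all lie upstream, from -212 to -26, and the Hsph1 and Dnajb11 matches lie after the start.

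Of the 4 UPR regulators, Ern1 fell at both times in each genotype, and of the others Xbp1 passed once. Ern1, the kinase and RNase that splices Xbp1 mRNA, had 10.97 and 11.43 at 0 h, 10.15 and 10.52 at 6 h and 9.17 and 9.37 at 24 h in PP2Ac_Tg cells. In WT cells it had 10.74 and 11.06, 9.93 and 10.43, and 9.22 and 9.24. Each later time lay below the one before it without overlap. At 24 h it was down to 0.263-fold of 0 h in PP2Ac_Tg cells (log2 -1.93 ± 0.21, adjusted p = 0.00046) and 0.314-fold in WT cells (log2 -1.67 ± 0.21, adjusted p = 0.00059). The 6 h differences were -0.86 in PP2Ac_Tg cells and -0.72 in WT cells, with adjusted p of 0.015 and 0.035. Without the unmarked 6 h array of the same genotype these became -0.68 (adjusted p = 0.11) and -0.46 (adjusted p = 0.22), and without the 0 h array marked Rep -0.63 (0.12) and -0.56 (0.19). Leaving out the WT arrays marked Rep gave -0.81 in WT cells (0.087).

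Xbp1, the main transcription factor downstream of Ern1, rose by 0.33 at 6 h in WT cells (adjusted p = 0.044), and its difference in PP2Ac_Tg cells was 0.27 (adjusted p = 0.098). The array probes do not tell spliced from unspliced Xbp1. Atf6 differed at 6 h by 0.33 in PP2Ac_Tg cells and 0.51 in WT cells, and at 24 h by 0.26 and 0.52, none past the threshold (each ± 0.23). Ddit3 (CHOP), a transcription factor of prolonged ER stress, had 9.62 and 9.70, 9.01 and 9.96, and 8.80 and 9.61 in PP2Ac_Tg cells, against 9.44 and 9.80, 9.04 and 10.15, and 8.88 and 9.53 in WT cells. Its 6 h arrays lay on either side of the 0 h arrays in each genotype, and the differences of -0.17 in PP2Ac_Tg cells and -0.02 in WT cells had standard errors of 0.43.

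In ER-associated degradation, which returns misfolded proteins to the cytosol for destruction, 1 gene rose and 1 fell at 6 h in each genotype. Syvn1 (HRD1), the ubiquitin ligase of the pathway, had 10.87 and 10.91, 11.36 and 11.21, and 11.02 and 10.99 in PP2Ac_Tg cells, against 10.90 and 10.89, 11.41 and 11.25, and 10.84 and 10.75 in WT cells. It rose by 0.39 at 6 h in PP2Ac_Tg cells and by 0.44 in WT cells (adjusted p = 0.0085 and 0.0046). By 24 h the difference from 0 h was 0.12 in PP2Ac_Tg cells and -0.10 in WT cells, neither past the threshold. Against 6 h it was -0.28 in PP2Ac_Tg cells (adjusted p = 0.066, and 0.042 with the replicate block), and in WT cells it fell by 0.54 (adjusted p = 0.0048). Edem1, a lectin that hands glycoproteins to degradation, had 12.79 and 12.70, 12.48 and 12.35, and 12.86 and 12.79 in PP2Ac_Tg cells, against 12.78 and 12.66, 12.44 and 12.30, and 12.66 and 12.75 in WT cells. It fell at 6 h by 0.34 in PP2Ac_Tg cells and by 0.35 in WT cells (adjusted p = 0.022 and 0.019, and 0.096 and 0.087 with median centring), and returned by 24 h, higher than at 6 h by 0.41 and 0.33. Sel1l, the scaffold of Syvn1, stayed between 11.18 and 11.33 in all 12 arrays, with differences of -0.07 to 0.05.

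Herpud1, an adaptor of Syvn1, is shown with its promoter because it holds both an ERSE-II and the only CARE of the 32 genes (TGATGNAA, a C/EBP-ATF site read by ATF4, in 4.51% of genes). The capitals mark the CARE on the opposite strand and then the ERSE-II, at chr8:94386179-94386428, plus strand, GRCm38.p6, from RefSeq.
Herpud1: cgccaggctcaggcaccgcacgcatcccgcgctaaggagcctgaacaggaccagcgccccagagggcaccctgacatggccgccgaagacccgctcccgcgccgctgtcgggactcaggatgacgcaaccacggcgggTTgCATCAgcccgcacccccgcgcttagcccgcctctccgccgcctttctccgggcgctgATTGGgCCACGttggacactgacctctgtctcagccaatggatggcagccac
Its signals in PP2Ac_Tg cells were 12.22 and 12.30 at 0 h, 11.86 and 12.79 at 6 h and 11.94 and 12.52 at 24 h. In WT cells they were 12.21 and 12.21, 11.74 and 12.88, and 12.10 and 12.63. In each genotype the unmarked 6 h array lay below both 0 h arrays and the one marked Rep above them. The mean difference at 6 h was therefore 0.06 in PP2Ac_Tg cells and 0.10 in WT cells, each ± 0.40.

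At 6 h, 3 of the 39 genes (Herpud1, Ddit3 and Dnajb9) were lower than at 0 h in the unmarked arrays and higher in those marked Rep in both genotypes, and none the reverse. The share of all probe sets with such opposite responses was not counted, so whether this number is unusual is not known. The 6 h array marked Rep exceeded the unmarked one by 0.92 in PP2Ac_Tg cells and 1.14 in WT cells for Herpud1, by 0.95 and 1.11 for Ddit3 and by 0.57 and 0.55 for Dnajb9. Gaps as large in the same direction in both genotypes were found for 30, 31 and 146 of all 23410 probe sets. Of the genes that stayed on 1 side of 0 h in both sets, Atf6 had 6 h gaps of 0.64 in PP2Ac_Tg cells and 0.43 in WT cells (136 probe sets as far) and Ern1 of 0.37 and 0.50 (274 probe sets), where Ern1 also had gaps of 0.46 and 0.32 at 0 h. Sdf2l1 had gaps the other way, of -0.71 in PP2Ac_Tg cells and -0.90 in WT cells at 6 h and of -0.21 and -0.63 at 0 h. Among other UPR genes, 3 that ATF4 is known to raise were picked after their values were seen: Chac1 and Trib3, with wider gaps than any of the 39 genes, and Atf3. The gap was 3.06 in PP2Ac_Tg cells and 3.22 in WT cells for Chac1, 2.73 and 2.60 for Trib3, and 1.20 and 1.05 for Atf3. At 0 h the same gaps were -0.13 to 0.57 for these 3 genes. The gaps were not limited to 6 h. At 24 h they were 2.43 in PP2Ac_Tg cells and 3.25 in WT cells for Chac1, 1.38 and 1.89 for Trib3, and 1.34 and 2.33 for Atf3. For Herpud1 the 24 h gaps were 0.58 and 0.53, for Ddit3 0.81 and 0.64, and for Dnajb9 0.16 and 0.38. What differed between the sets is not given by the labels, and its part in the result was not tested. Over all 39 genes the median response at 6 h was 0.75 in the unmarked arrays and 0.63 in those marked Rep in PP2Ac_Tg cells, and 0.75 and 0.58 in WT cells. At 24 h these medians were 0.52 and 0.43 in PP2Ac_Tg cells and 0.46 and 0.51 in WT cells.

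**Figure D4:**
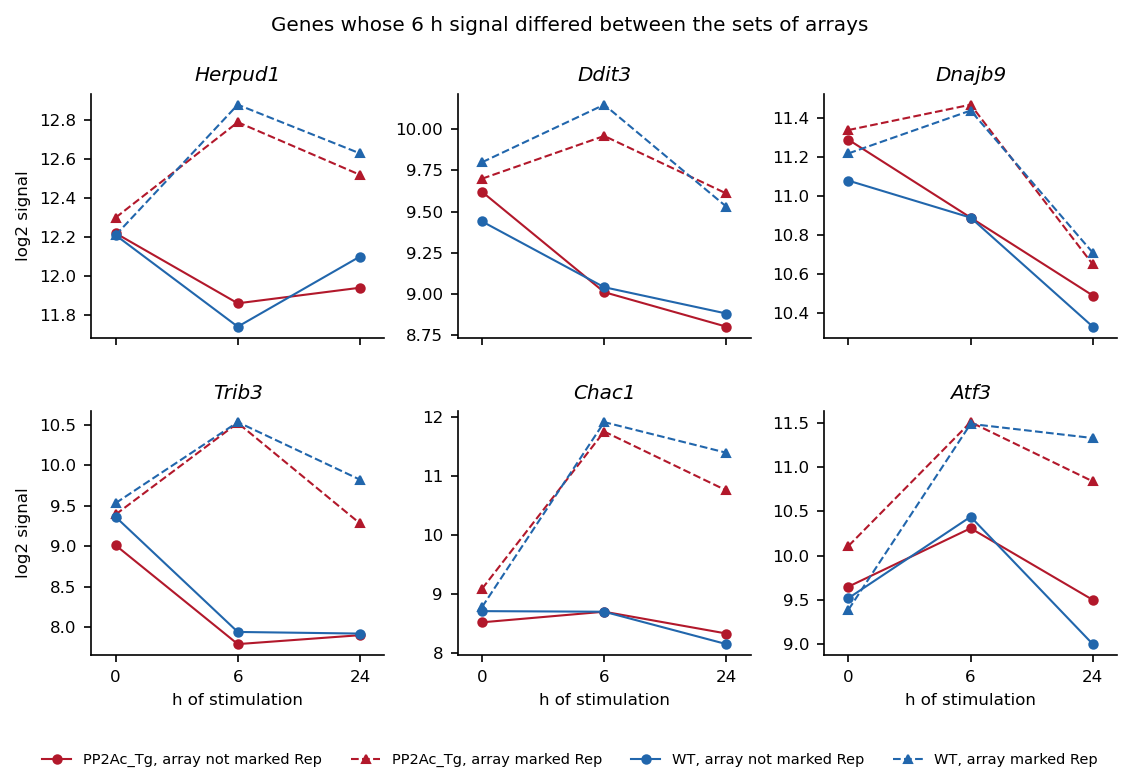
Log2 signal in each array at 0, 6 and 24 h (evenly spaced) for 3 chaperone genes (top) and 3 other UPR genes chosen after their values were seen (bottom), PP2Ac_Tg in red and WT in blue, unmarked arrays as circles on solid lines and arrays marked Rep as triangles on dashed lines. At 6 h both dashed lines lie above both solid lines in every panel.

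Between 6 h and 24 h most of the 39 genes did not pass, and among those that did, falls outnumbered rises. In PP2Ac_Tg cells 10 of the 39 genes fell and 2 rose, where 14.3% of all probe sets changed (7.89% rose and 6.42% fell). In WT cells 8 fell and 2 rose, where 13.3% changed (7.49% rose and 5.86% fell). Of the brighter 60% of probe sets, 26.3% changed in PP2Ac_Tg cells (12.5% fell) and 24.8% in WT cells (11.8% fell), so the 12 and 10 genes called are a share near that of bright probe sets. The median difference was -0.26 in PP2Ac_Tg cells and -0.19 in WT cells, against -0.02 and -0.03 over all probe sets. Within WT cells it was -0.30 in the unmarked arrays (4 of 39 positive) and -0.08 in those marked Rep (13 of 39 positive). The genes that fell in both genotypes were 7, namely Hspa5, Pdia6, Hyou1, Ern1, Hsph1, Dnajb1 and Cct3, and those that rose in both were Dnajc3 and Edem1. These counts depended on single arrays: they were 3 to 12 in PP2Ac_Tg cells and 3 to 10 in WT cells when 1 array was left out, lowest without the unmarked 24 h array of the same genotype. With only the groups compared in the fit, limma called 5 in PP2Ac_Tg cells and 0 in WT cells (12 at an unadjusted p under 0.05). Hspa9 differed by -0.45 in PP2Ac_Tg cells and -0.38 in WT cells and passed only with the replicate block (adjusted p = 0.015 and 0.032). Atf6, Ddit3, Herpud1 and Sel1l were the 4 genes called in no response.

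No chaperone gene passed the test between the genotypes. At 0, 6 and 24 h and averaged over the times, 0 of the 39 differed between PP2Ac_Tg and WT cells with limma (background 0.00854% of probe sets at each time and 0.0256% averaged). At an unadjusted p under 0.05 the counts were 0, 0, 1 and 1. The differences ran from -0.19 to 0.30 at 0 h, from -0.12 to 0.15 at 6 h and from -0.19 to 0.21 at 24 h on the log2 scale. Their 95% confidence intervals lay within ±0.5 for 33, 33 and 32 of the 39 genes, and for 37 when averaged over the times. For Ddit3 at 6 h the interval was -1.09 to 0.87 and for Herpud1 -0.89 to 0.91.

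The 5 smallest unadjusted p are given as values only, since none passed. Syvn1 at 24 h was 11.02 and 10.99 in PP2Ac_Tg cells, against 10.84 and 10.75 in WT cells (difference 0.21 ± 0.09, limma adjusted p = 1.0). Averaged over the times, Xbp1 differed by 0.14 ± 0.06 (adjusted p = 0.79), Hspe1 by -0.12 ± 0.06 and Cct4 by -0.09 ± 0.04 (adjusted p = 0.80 for each). The second Hspe1 probe set gave -0.14 averaged and -0.22 at 0 h (limma unadjusted p = 0.03 and 0.045), neither past the adjusted threshold. The counts at an unadjusted p under 0.05 are those of the chosen probe sets only. Dnaja1 at 0 h was 12.15 and 11.92 in PP2Ac_Tg cells, against 11.82 and 11.87 in WT cells (difference 0.19 ± 0.10, adjusted p = 1.0). The test of the difference in response gave no call: 0 of 39 genes and 0.0% of all probe sets passed for the difference between PP2Ac_Tg and WT cells in the response at 6 h or at 24 h, with 0 members at an unadjusted p under 0.05 at each time. Those differences ran from -0.18 to 0.18 at 6 h and from -0.26 to 0.21 at 24 h.

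**Figure D5:**
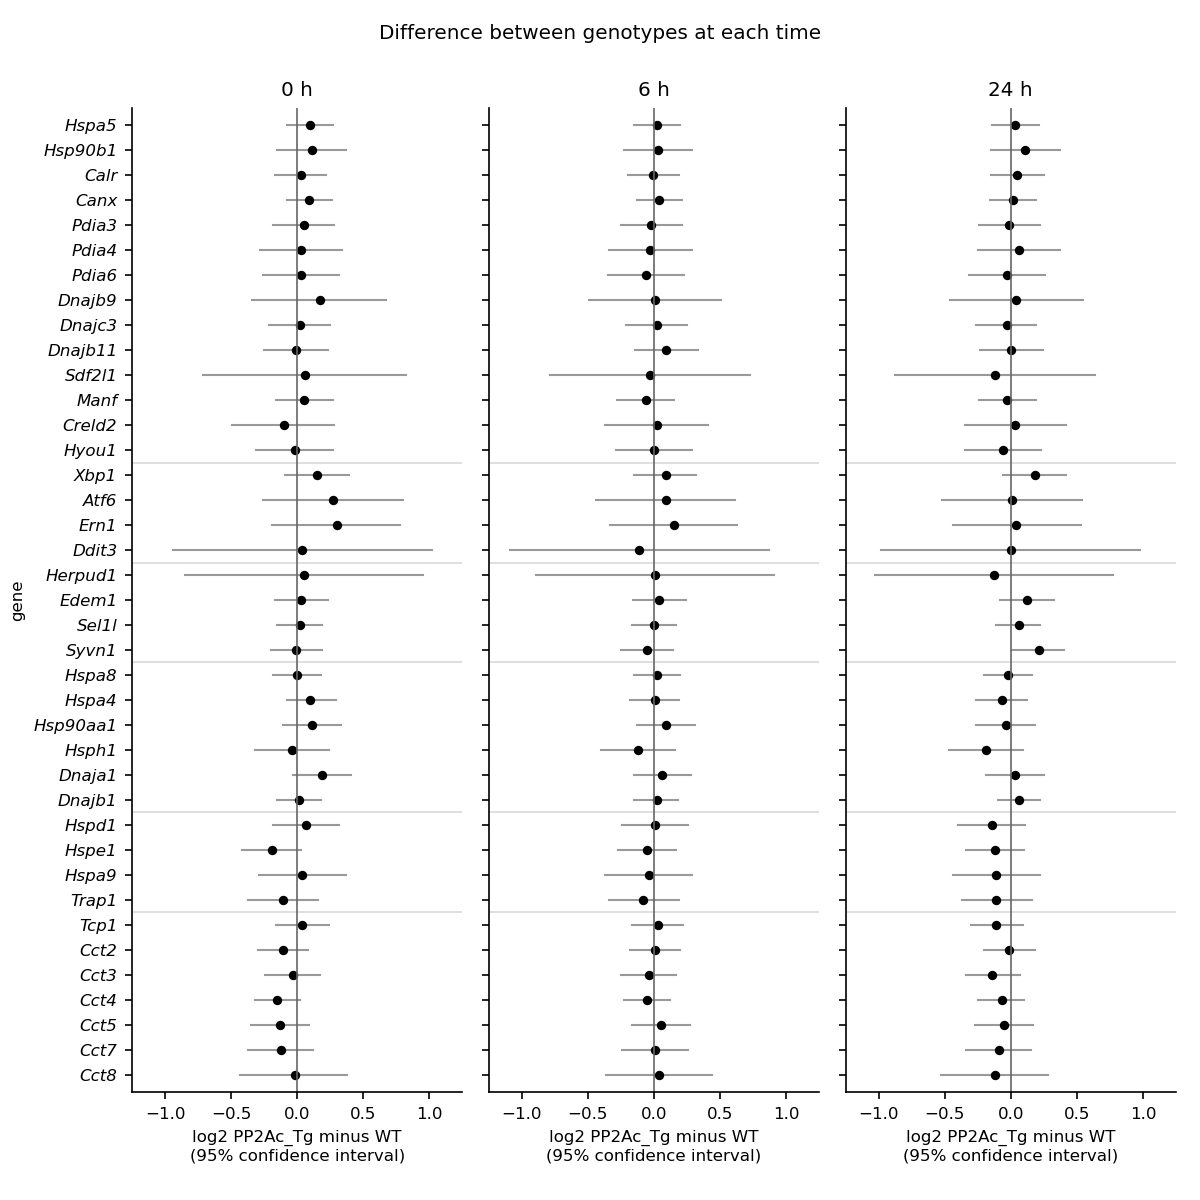
Log2 difference of PP2Ac_Tg minus WT for each of the 39 genes at 0, 6 and 24 h (points) with its 95% confidence interval from limma (lines; 2 arrays per group), grouped by compartment as in the plot of responses. The points lie between -0.19 and 0.30, and the widest intervals belong to Ddit3, Herpud1 and Sdf2l1.

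The rest of these pathways was described from 5 lists with 126 measured genes. For comparison, 25.4% of all probe sets changed at 6 h in PP2Ac_Tg cells and 26.5% in WT cells (43.4% and 44.7% of the brighter 60%), and at 24 h 23.8% and 26.7% did (40.9% and 45.4%). Of 33 other genes of ER folding and translocation, 18 rose and 2 fell at 6 h in each genotype. Rpn1, a subunit of the oligosaccharyltransferase, rose by 0.96 in PP2Ac_Tg cells and by 1.0 in WT cells, and the oxidase Ero1b fell by 1.07 and 0.91. At 24 h, 15 rose and 1 fell in PP2Ac_Tg cells, and 14 rose and 1 fell in WT cells. Lman1, a cargo receptor for export from the ER, was higher by 0.92 in PP2Ac_Tg cells and by 1.08 in WT cells, and Sec62 of the translocon fell by 0.43 in PP2Ac_Tg cells and fell by 0.40 in WT cells.

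Of 26 other genes of the UPR and ER-associated degradation, 2 rose and 6 fell at 6 h in each genotype, and at 24 h none rose while 8 fell in PP2Ac_Tg cells and 7 in WT cells. These shares are near those of all probe sets and below those of the brighter ones. Eif2ak3 (PERK), like Ern1 a sensor of the ER membrane, fell most, by 1.75 and 1.40 in PP2Ac_Tg cells and by 1.70 and 1.35 in WT cells at 6 h and 24 h. Ppp1r15a (GADD34), which directs a phosphatase to eIF2α, fell by 1.21 at 24 h in PP2Ac_Tg cells and fell by 0.98 in WT cells. Vcp, the ATPase that extracts proteins from the ER, rose at 6 h by 0.45 in PP2Ac_Tg cells and by 0.49 in WT cells.

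Of 30 other cytosolic heat shock proteins and cochaperones, 17 rose and 1 fell at 6 h in PP2Ac_Tg cells and 18 rose in WT cells. Hspa4l rose by 1.41 in PP2Ac_Tg cells and by 1.70 in WT cells, then fell by 1.79 and 1.65 between 6 h and 24 h. Stip1, the adaptor between HSP70 and HSP90, remained higher at 24 h, by 0.98 in PP2Ac_Tg cells and by 1.18 in WT cells. Hspa1a, the stress-inducible HSP70, fell by 1.41 between 6 h and 24 h in PP2Ac_Tg cells and by 1.28 in WT cells. Its PP2Ac_Tg signals were 8.62 and 8.58, 8.58 and 8.92, and 7.26 and 7.41 at 0, 6 and 24 h. Those in WT cells were 8.36 and 8.28, 8.86 and 8.84, and 7.30 and 7.83. In each genotype the 24 h arrays thus lay below the 0 h arrays. Of the 30 genes, 11 were higher and 5 lower at 24 h than at 0 h in PP2Ac_Tg cells, and 13 and 5 in WT cells. Of 16 other CCT, prefoldin and tubulin chaperones, 6 rose and 1 fell at 6 h in each genotype, a share near that of the brighter probe sets. Cct6a, the subunit of the ring that is no member of the list above, rose by 1.27 in PP2Ac_Tg cells and by 1.23 in WT cells, and Pfdn5 of prefoldin fell by 0.45 and 0.44. Of 21 other genes of mitochondrial protein quality control and import, 12 rose at 6 h in each genotype, and 2 fell in PP2Ac_Tg cells and 3 in WT cells. The import pore Tomm40 rose by 1.54 in PP2Ac_Tg cells and by 1.45 in WT cells, and the iron-sulphur cochaperone Hscb fell by 0.58 and 0.82. Medians at 6 h were 0.59 in PP2Ac_Tg cells and 0.56 in WT cells for the mitochondrial list, and -0.04 and -0.01 for the UPR list.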

How the data were processed

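Per the labels, RNA came from a TRIZOL extraction cleaned on Qiagen columns, and labelling was with biotin at the cDNA ends. The authors deposited 1 log2 value per probe set and array, from 3.49 to 15.38 for 28853 probe sets, and that the scale is log2 was inferred from this range. The sources used here do not give how the authors summarised and normalised. Medians of the 12 arrays differed by 0.110, above a limit of 0.1, so values were quantile normalised. Symbols came from the platform annotation: 21789 probe sets had 1 symbol, 1621 several and 5443 none, and 23410 were tested.

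The test was limma 3.58.1 in R 4.3.3, with 1 fit of 6 group means over all 12 arrays (residual degrees of freedom 6, prior 3.05), and p-values had Benjamini-Hochberg adjustment over all probe sets within each of 12 comparisons. Values named are those of all members, with array values for the largest and smallest response of each compartment, the 5 smallest genotype p, up to 2 called genes per direction of each further list, Ppp2ca and the activation list. The members, the lists, the rule and the alternatives were chosen with earlier results of these data known.

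Deviations from the group mean correlated between groups for arrays with the same mark (15 correlations, 0.138 to 0.591). The fit of 6 group means had no block for the mark Rep, so its p-values and counts ignore this pairing. A fit with the mark as a replicate block was run as an alternative, and its values are named as such. Also tried were median centring, the deposited values unchanged, trended with robust moderation, a single probe set for each gene, only the groups compared, dropping the dimmest 40% of probe sets, another probe set of the gene, leaving out each array, and leaving out the WT arrays marked Rep. Tested on simulated data for the WT response at 6 h among 23410 probe sets, the procedure found 39% at a log2 size of 0.5, 79% at 1 and 96% at 2, and 4 of its 150 calls were false. The simulation changed 64, 58 and 78 probe sets of these sizes, far fewer than changed in the data. It also gave each array independent noise, so these rates may not hold for the real responses. Promoter windows came from a RefSeq table of GRCm38.p6. Plots were drawn with matplotlib 3.10.9, and tables with numpy 2.4.6 and pandas 2.3.3, in Python 3.11.15.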

Additional observations from a re-analysis of the deposited data

How the results depend on the processing

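The counts of genes called between PP2Ac_Tg and WT cells stayed at 0 under every alternative run. The counts at 6 h and 24 h against 0 h stayed within 1.5 times of 30, 28, 30 and 27 with 1 exception: 16 genes at 24 h in WT cells without the WT arrays marked Rep. Leaving out 1 array gave 25 to 29 genes at 6 h and 22 to 28 at 24 h in PP2Ac_Tg cells, and 26 to 31 and 20 to 29 in WT cells. Of these calls, 24 of 30 at 6 h and 21 of 28 at 24 h in PP2Ac_Tg cells, and 23 of 30 and 16 of 27 in WT cells, passed under every alternative. For 24 h against 6 h, 12 genes in PP2Ac_Tg cells became 5, and 10 in WT cells became 0 with limma (12 at an unadjusted p under 0.05), with only the groups compared in the fit, which leaves fewer samples. Without the WT arrays marked Rep the WT count was 3, and with 1 array left out the counts were 3 to 12 in PP2Ac_Tg cells and 3 to 10 in WT cells. With the mark Rep as a replicate block, 30, 28 and 16 genes were called at 6 h, 24 h and between them in PP2Ac_Tg cells, and 31, 29 and 13 in WT cells; it added 10 calls of members and ended none. No called value changed sign under any alternative. The cause of the other changes was not tested. Arrays leave low probe sets near background, but the mean of each of the 39 genes was above the array median.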
